A study of Mus musculus with 12 samples.

Results

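The genes described here make fatty acids, store them as triglyceride, release them again and burn them. They were taken as the rows of the expression table whose mouse symbol was on a list of 41 such genes. Of these, 40 had a row among the 15720 genes of the table, and the fatty acid transporter Cd36 was not analysed here. RNA sequencing had been run on EMS404, an SV40-immortalised hepatic stellate line of the C57Bl6 strain that also expresses human TLR4, so every group carries both modifications and all of them derive from this single line. Cells received a scrambled siRNA or one directed at Bmal1, a core clock activator whose gene symbol is Arntl, and were given vehicle or 10 ng/mL TGFb for 24 h beginning 48 h after transfection. Each of the 4 combinations had 3 libraries, 12 in all, called scrambled vehicle, scrambled TGFb, Bmal1 siRNA vehicle and Bmal1 siRNA TGFb below. No label says that the replicates came from separate cultures, so p-values speak only to the spread among these libraries, part of which may be technical.

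Fatty acids are built from acetyl-CoA by the carboxylases and fatty acid synthase, then lengthened by elongases and given double bonds by desaturases. After activation to acyl-CoA they are joined to glycerol and packed into lipid droplets coated by perilipins, and lipases take them off again one at a time, beginning with Pnpla2 (ATGL). Carnitine palmitoyltransferases carry the released acyl chains into mitochondria for beta-oxidation. Quiescent stellate cells hold droplets rich in retinyl esters and triglyceride, and losing these droplets is a known feature of their conversion into matrix-producing myofibroblasts, which TGFb promotes.

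Expression was given as FPKM, fragments per kilobase of transcript, relative to library size. FPKM totals of the 12 libraries lay between 445472 and 483957, with 13673 to 13975 genes above 0. Steps between the lowest values gave a rough depth of 29100000 fragments per library. The targeted transcript, Arntl, stood at 5.43, 5.19 and 4.91 FPKM in scrambled vehicle and at 10.50, 10.75 and 10.86 in scrambled TGFb. It was 3.90, 3.87 and 3.59 FPKM in Bmal1 siRNA vehicle and 5.05, 4.01 and 4 in Bmal1 siRNA TGFb. The Bmal1 siRNA libraries were lower than the scrambled ones under either treatment without overlap, with a log2 difference of -0.37 (SE 0.076, adjusted p = 0.049) under vehicle and -1.13 (SE 0.076, adjusted p = 1.38e-06) under TGFb. The vehicle call was lost in 13 of 23 other settings, among them a pseudocount of 5, where the difference was -0.21 with an adjusted p of 0.0516. Of the stellate and mesenchymal markers searched, 13 of 15 had a row (Lrat and Reln were not analysed here). Col1a1 reached 2716 to 4222 FPKM, Vim 962 to 1114, Hand2 77.1 to 135 and Lhx2 13.1 to 15.6, while Des, a marker of rodent stellate cells, stayed between 0.52 and 1.23. Adipocyte markers summed to at most 0.13 FPKM per library (3 of 8 had a row, Adipoq reaching 0.06 and Lep 0.05). The leukocyte markers summed to 3.03 to 5 FPKM (5 of 9), mostly Cd68 (2.63 to 4.71). Endothelial markers summed to 5.52 to 10.67 (8 of 8), mostly Egfl7 (4.38 to 7.51) and Tek (0.96 to 3.09), with Pecam1 at most 0.13. Those of cholangiocytes summed to 7.97 to 17.46 (5 of 5). Among them Krt8 lay at 2.86 to 9.73, Krt19 at 1.39 to 5.61 and Sox9 at 1.22 to 3.61. Krt7 lay at 0.41 to 2.74 and Epcam at most at 0.28. Hepatocyte markers (6 of 10) summed to 40.6 to 244 FPKM, nearly all of it transferrin (Trf, 40.5 to 240). Hnf4a, which defines hepatocytes, did not pass 0.01. Trf fell with TGFb under both siRNAs (log2 changes of -1.96 and -1.69, adjusted p = 6.66e-06 and 0.000201), as did Ahsg (-1.74 and -1.06, adjusted p = 3.53e-05 and 0.00574), the other tested hepatocyte marker. In scrambled cells TGFb also lowered the leukocyte marker Cd68 (-0.45, adjusted p = 0.000739) and 1 of 2 tested endothelial markers (Egfl7, -0.49, adjusted p = 0.000505), and neither was called after the Bmal1 siRNA. Of 4 tested cholangiocyte markers 2 were higher and 2 lower in scrambled cells, and 1 was lower after the Bmal1 siRNA. Of 12 tested stellate and mesenchymal markers 4 were higher and 4 lower in scrambled cells. Dcn fell there by 2.37 and Pdgfra by 1.91 on the log2 scale. Mean FPKM there went from 54.4 to 240 for Acta2 and from 12.9 to 29.6 for Pdgfrb. It went from 2784 to 4130 for Col1a1 and from 812 to 1388 for Col1a2. After the Bmal1 siRNA 4 of the 12 were higher and 2 lower. The part of these markers in the results was not tested.

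Replicate 2 of Bmal1 siRNA TGFb stood apart from the other libraries of its group. On the first principal component of all tested genes, which held 71.0% of the variance, vehicle libraries lay between -17.76 and -15.42 and scrambled TGFb between 27.16 and 29.85. The Bmal1 siRNA TGFb libraries lay at 12.99, -5.13 and 8.40. Where leaving it out changed a call of a listed gene, or moved a called change by over 1.5 times, the value without it is given too. Without it Acadl and Acadvl were also called lower with TGFb in scrambled cells (adjusted p = 0.0426 and 0.0356), with their changes there as before (-0.14 each), since all groups share 1 estimate of the spread.

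Levels of the listed genes covered a wide span, and synthesis genes were at the top. Averaged over the 12 libraries, Scd2 ranked first with 470 ± 39.1 FPKM (SD, n = 12), followed by Fads2 with 360 ± 69.6, Fads1 with 194 ± 17.9, Fasn with 119 ± 13.3, Acly with 117 ± 9.68 and Scd1 with 99.8 ± 12.4. In this order the ranges of Fads2 and Fads1 and those of Fads1 and Fasn did not overlap, whereas those of Scd2 and Fads2, of Fasn and Acly and of Acly and Scd1 did. Activation, droplet, lipolysis and oxidation genes lay between 4.42 FPKM (Lpin1, the phosphatidate phosphatase lipin) and 46.2 FPKM (Hadha, a subunit of the mitochondrial trifunctional protein). Fabp5, a cytosolic fatty acid-binding protein, averaged 45.2 ± 8.17 FPKM. Acacb, the mitochondrial-membrane acetyl-CoA carboxylase, was low, 0.53 to 1.11 FPKM, against 21.72 to 26.13 FPKM for its cytosolic relative Acaca.

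**Figure D1:**
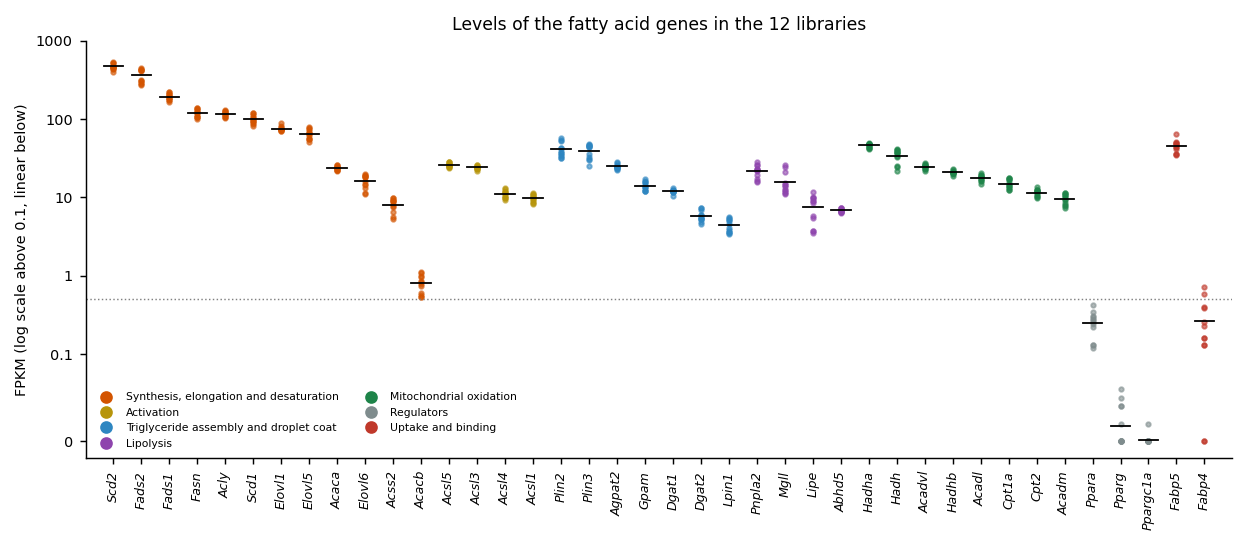
Level of each of the 40 genes in the 12 libraries (points) with the mean (bar), in FPKM on an axis that is logarithmic above 0.1 and linear below it, grouped by role. The dotted line marks the mean of 0.5 FPKM needed to enter the test, with Ppara, Pparg, Ppargc1a and Fabp4 below it and Scd2 the highest.

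The 3 regulators and Fabp4 had too little signal to be tested, which left 36 genes. Pparg, the master regulator of fat storage, was listed at 0 in 7 of the 12 libraries and did not pass 0.06 FPKM. Its coactivator Ppargc1a was listed at 0 everywhere except Bmal1 siRNA TGFb replicate 1, at 0.02. Ppara, the nuclear receptor that turns on fatty acid oxidation, was 0.26, 0.30 and 0.31 FPKM in scrambled vehicle and 0.12, 0.13 and 0.13 in scrambled TGFb. The Bmal1 siRNA libraries had 0.27, 0.34 and 0.24 FPKM under vehicle and 0.28, 0.42 and 0.22 under TGFb. The 3 scrambled TGFb libraries therefore held the lowest Ppara values of the 12, at levels that rest on few fragments. Fabp4, the fatty acid-binding protein of adipocytes and macrophages, ranged from 0 to 0.72 FPKM, and Bmal1 siRNA vehicle alone spanned that range.

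In scrambled cells TGFb lowered most of the genes that were tested. A gene was called when its adjusted p in limma was under 0.05, and all changes are differences in log2(FPKM + 1). Of the 36, 26 were called (72.2%), 3 higher and 23 lower, and their median change was -0.24. Over all 11208 genes tested 45.5% were called, 16.4% higher and 29.1% lower, with a median of -0.05. The count of lower genes moved with the scaling. With median-of-ratios scaling 3 of the 36 were higher and 18 lower (median -0.18, and 0.01 over all genes). With libraries scaled to equal totals 3 were higher and 20 lower, and without scrambled vehicle replicate 3 they were 3 and 19. The 3 libraries of one group did not overlap the 3 of the other for 28 of the 36 genes and for 55.0% of all genes tested. In RNA from whole cultures, fewer cells of a kind and less RNA per cell cannot be told apart. Summed over the 40 genes, the FPKM of scrambled TGFb libraries was 1833 ± 9.86 (SD, n = 3) against 2150 ± 48.8 under vehicle, and the synthesis genes made up most of that difference, with 1381 ± 16.6 against 1638 ± 63.2.

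After the Bmal1 siRNA fewer of them were called with TGFb. Here 14 of the 36 were called (2 higher and 12 lower, median -0.15), with 19.0% called among all genes (8.90% higher and 10.1% lower, median 0.00). Without replicate 2 of Bmal1 siRNA TGFb the count was 19 (2 higher and 17 lower), the added calls being those of Acacb, Plin3, Cpt1a, Acadm and Hadh. Leaving out Bmal1 siRNA vehicle replicate 2 or Bmal1 siRNA TGFb replicate 3 brought it to 5 each, leaving out Bmal1 siRNA TGFb replicate 1 to 7 and leaving out Bmal1 siRNA vehicle replicate 1 to 9. Groups did not overlap for 19 of the 36 genes, against 35.4% of all genes. Of the 14 calls, 4 held in every other setting and 10 were lost in at least 1. Not all of these losses are marked gene by gene below.

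Between the siRNAs, genes of the list were called under TGFb and none was called under vehicle. Under vehicle limma called 0 of the 36, with 0.660% called among all genes (0.294% higher and 0.366% lower), and the median change was 0.05 against 0.01. At an unadjusted p under 0.05, 2433 of the 11208 genes passed. Without Bmal1 siRNA TGFb replicate 2, which is not among the libraries compared here but enters the shared spread, Scd1 (0.21, adjusted p = 0.0389), Scd2 (0.25, adjusted p = 0.0389) and Pnpla2 (-0.21, adjusted p = 0.047) were called. Groups did not overlap for 11 of the 36 genes, against 31.7% of all genes. Under TGFb 16 were called, 14 of them higher and 2 lower with the Bmal1 siRNA, with a median of 0.14. The matching shares over all genes were 23.2% called, 16.0% higher and 7.16% lower, with a median of 0.06. Groups did not overlap for 25 of the 36 genes, against 39.2% of all genes. With median-of-ratios scaling 9 were higher and 3 lower, so that 75.0% of the calls were higher in place of 87.5%. Without Bmal1 siRNA TGFb replicate 2 the calls were 10 higher and 2 lower, and without scrambled TGFb replicate 1 they were 8 and 2. This comparison and that of TGFb with vehicle in scrambled cells share the scrambled TGFb libraries, so their values stand side by side and were not correlated.

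The interaction, the change with TGFb after the Bmal1 siRNA minus that in scrambled cells, was called for 8 of the 36 genes. It was positive for 5 (Elovl6, Acss2, Pnpla2, Lipe and Hadh) and negative for 3 (Scd2, Plin2 and Mgll), with a median of 0.12. Over all genes 14.4% were called, 8.86% positive and 5.52% negative, with a median of 0.06. The calls of Plin2, Pnpla2, Lipe, Mgll and Hadh held in all 22 other settings, whereas those of Scd2, Elovl6 and Acss2 were lost in 12, 13 and 11 of them. With median-of-ratios scaling or with libraries scaled to equal totals 3 were positive and 3 negative. Without Bmal1 siRNA TGFb replicate 2 there were 4 positive and 2 negative calls, those of Scd2 (-0.27, adjusted p = 0.0569) and Acss2 (0.33, adjusted p = 0.0555) being lost. Of the library omissions, those of scrambled TGFb replicate 2 and of Bmal1 siRNA vehicle replicate 2 brought the count down to 5.

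**Figure D2:**
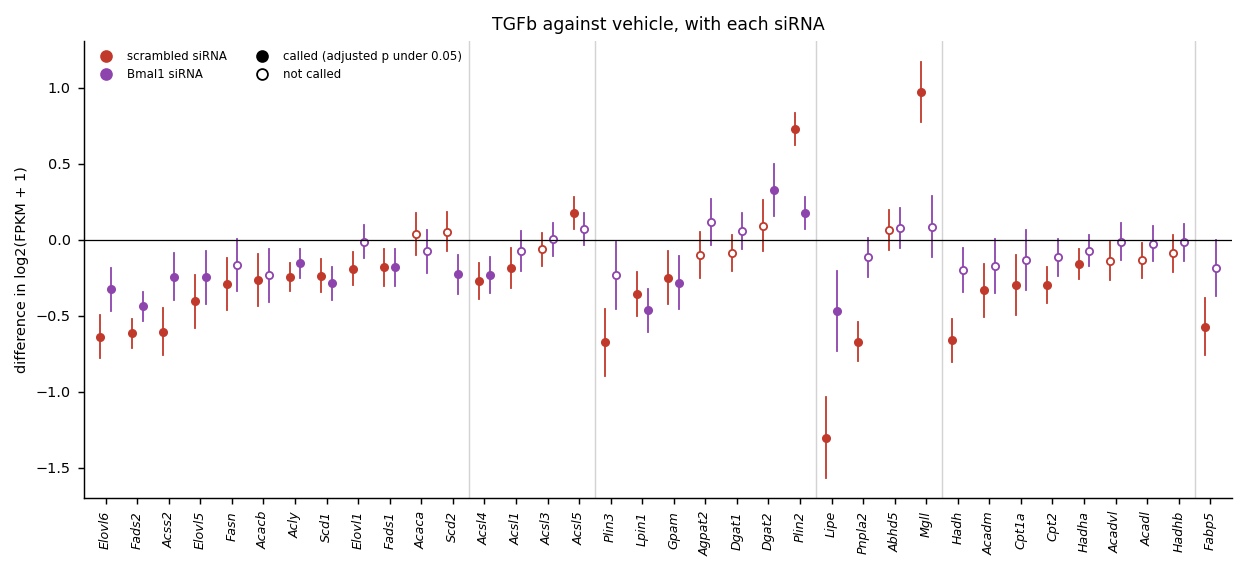
Change with TGFb in log2(FPKM + 1) for the 36 tested genes, with scrambled siRNA in red and Bmal1 siRNA in purple. Bars are 95% confidence intervals from limma, filled points were called at an adjusted p under 0.05, and vertical lines part the roles. Lipe (-1.30) and Mgll (0.97) mark the ends of the range in scrambled cells.

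Synthesis, elongation and desaturation genes fell with TGFb under both siRNAs. In scrambled cells 10 of 12 were lower and none was higher, with a median of -0.26, against 29.1% of all genes lower. After the Bmal1 siRNA 8 of 12 were lower and none higher, with a median of -0.23, against 10.1% of all genes lower. These 8 calls did not all hold when 1 library was left out. Over the whole list 4 genes were lower without Bmal1 siRNA TGFb replicate 3, and 5 without Bmal1 siRNA vehicle replicate 2. Fads2 (chr19:10062765-10101746, minus strand, mm10) is the front-end desaturase that opens the route to polyunsaturated fatty acids. It measured 423.39, 419.14 and 451.20 FPKM in scrambled vehicle and 275.16, 280.43 and 286.97 in scrambled TGFb. Values in Bmal1 siRNA vehicle were 430.76, 418.98 and 408.96 FPKM and those in Bmal1 siRNA TGFb were 304.31, 308.29 and 315.65. All 6 TGFb libraries lay below all 6 vehicle libraries. Fads2 fell by 34.9% in scrambled cells (log2 change -0.62, SE 0.044, adjusted p = 2.37e-07) and by 26.3% after the Bmal1 siRNA (log2 change -0.44, adjusted p = 5.52e-05). Its interaction was 0.18 with an adjusted p of 0.0768. Under TGFb it was higher with the Bmal1 siRNA by a log2 of 0.14 (adjusted p = 0.0383). That call was lost in 12 of 23 settings, among them that without Bmal1 siRNA TGFb replicate 2 (adjusted p = 0.063).

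Elovl6 (chr3:129532355-129638495, plus strand) is the elongase that acts on palmitate. It measured 18.24, 19.41 and 18.82 FPKM in scrambled vehicle and 13.01, 10.92 and 11.33 in scrambled TGFb. With the Bmal1 siRNA it measured 19.85, 18.98 and 18.35 FPKM under vehicle and 16.02, 14.81 and 14.19 under TGFb. Every TGFb library was below every vehicle library, and the scrambled TGFb libraries were the lowest of all. It fell by 37.6% in scrambled cells (log2 change -0.64, SE 0.066, adjusted p = 4.94e-06) and by 21.3% after the Bmal1 siRNA (log2 change -0.33, adjusted p = 0.00408). Acss2 (chr2:155517948-155585724, plus strand) makes acetyl-CoA from acetate. It measured 9.87, 9.05 and 8.92 FPKM in scrambled vehicle, 5.24, 5.6 and 6.46 in scrambled TGFb, 9.07, 9.31 and 9.89 in Bmal1 siRNA vehicle and 7.73, 8.20 and 7.45 in Bmal1 siRNA TGFb. The order of the groups was the same as for Elovl6, again without overlap between treatments. Acss2 fell by 37.9% in scrambled cells (log2 change -0.61, SE 0.071, adjusted p = 1.58e-05) and by 17.3% after the Bmal1 siRNA (log2 change -0.25, adjusted p = 0.0292). Both genes were higher with the Bmal1 siRNA under TGFb, Elovl6 by a log2 of 0.33 (adjusted p = 0.00357) and Acss2 by 0.38 (adjusted p = 0.00236). Acss2 shares 395 exon bases with Gss, a neighbour expressed at 9.74 to 11.8 FPKM.

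Scd2, the most abundant of the listed transcripts, is a stearoyl-CoA desaturase that makes monounsaturated fatty acids. It measured 401.06, 472.09 and 459.63 FPKM in scrambled vehicle and 464.69, 450.08 and 463.91 in scrambled TGFb. In Bmal1 siRNA vehicle it stood at 522.83, 539.55 and 515.81 FPKM, and in Bmal1 siRNA TGFb at 466.79, 441.25 and 439.52. The 3 Bmal1 siRNA vehicle libraries were the highest of the 12, and in scrambled cells the treatments overlapped. The TGFb change was 0.05 in scrambled cells (adjusted p = 0.496) and a fall after the Bmal1 siRNA (log2 change -0.23, adjusted p = 0.0162), and the difference between these changes was called (-0.28, adjusted p = 0.0395). Under vehicle the siRNAs differed by 0.25 with an adjusted p of 0.0667. Its paralog Scd1 fell under both siRNAs, with log2 changes of -0.24 (adjusted p = 0.00174) and -0.29 (adjusted p = 0.00172). Reads from stretches that both Scd genes share could have been assigned to either, so their split is uncertain.

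Of the other 7 synthesis genes 6 fell in scrambled cells. Acly, which cleaves citrate to acetyl-CoA, fell under both siRNAs, with log2 changes of -0.25 and -0.16 (adjusted p = 0.000409 and 0.0216). Elovl5, an elongase of polyunsaturated chains, and the desaturase Fads1 also fell under both siRNAs, with log2 changes of -0.41 and -0.25 for Elovl5 (adjusted p = 0.00123 and 0.0497) and of -0.18 each time for Fads1 (adjusted p = 0.0168 and 0.0367). The Elovl5 groups overlapped after the Bmal1 siRNA, and that call was lost in 14 of 23 settings. Fasn, fatty acid synthase, fell in scrambled cells (log2 change -0.29, adjusted p = 0.00871), as did the low-expressed Acacb (-0.27, adjusted p = 0.0145) and the elongase Elovl1 (-0.19, adjusted p = 0.00695). The change of Acacb after the Bmal1 siRNA was -0.24 (adjusted p = 0.0547), and -0.28 (adjusted p = 0.0269) without replicate 2 of Bmal1 siRNA TGFb. Acaca, which forms malonyl-CoA for synthesis, was not called in any comparison, and its changes ran from -0.12 to 0.09.

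**Figure D3:**
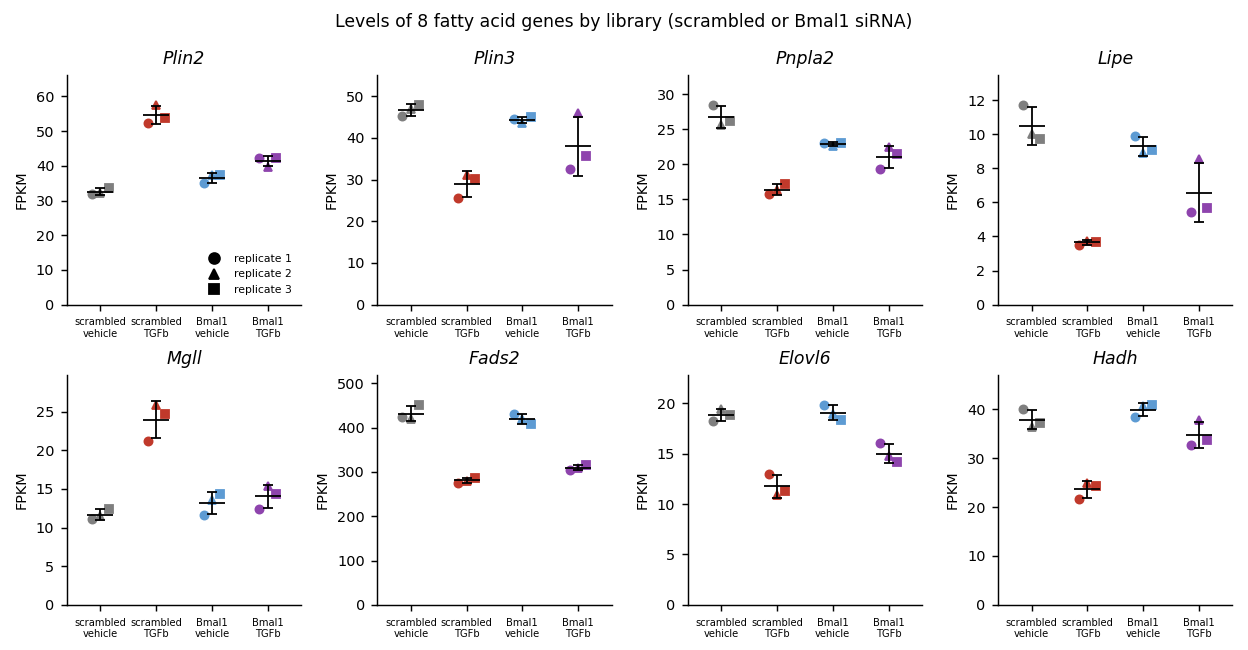
FPKM of 8 genes in each library, with the mean and SD of each group of 3 (lines) and the replicate shown by the marker. Plin2 and Mgll were highest in scrambled TGFb, where the other 6 genes were lowest, and replicate 2 of the Bmal1 siRNA TGFb group (triangle) reached the vehicle range for Plin3.

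Acyl-CoA synthetases, which activate fatty acids for every later step, were divided. Acsl5 was the most abundant of the 4, with 26.91, 24.54 and 23.97 FPKM in scrambled vehicle and 28.53, 28.59 and 28.41 in scrambled TGFb. The Bmal1 siRNA libraries had 25.21, 25.45 and 24.15 FPKM under vehicle and 26.10, 25.65 and 27.05 under TGFb. The scrambled TGFb libraries were the highest, and Acsl5 rose there with TGFb (log2 change 0.18, adjusted p = 0.00986). It shares 404 exon bases with Zdhhc6 (26.23 to 31.3 FPKM). Acsl4, which prefers arachidonic acid, fell under both siRNAs, with changes of -0.27 and -0.23 (adjusted p = 0.00121 and 0.00976). Acsl1 fell in scrambled cells (-0.19, adjusted p = 0.0226), a call lost in 6 of 23 settings, and was higher with the Bmal1 siRNA under TGFb (0.26, adjusted p = 0.00863). Acsl3, a synthetase of growing droplets, was not called in any comparison.

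Of the 7 genes of triglyceride assembly and the droplet coat, the perilipins moved the most in scrambled cells, and in opposite directions. With the Bmal1 siRNA the TGFb changes of Lpin1 (-0.46) and Dgat2 (0.33) were larger than those of Plin2 (0.18) and Plin3 (-0.23, not called). Plin2 (chr4:86648386-86670060, minus strand) coats droplets and is itself degraded when no lipid binds it. It measured 31.98, 32.13 and 33.61 FPKM in scrambled vehicle and 52.50, 57.68 and 53.94 in scrambled TGFb. Values in Bmal1 siRNA vehicle were 34.97, 37.29 and 37.24 FPKM and those in Bmal1 siRNA TGFb were 42.27, 39.58 and 42.19. The 4 groups did not overlap one another, and scrambled TGFb was the highest. Plin2 rose 1.68-fold in scrambled cells (log2 change 0.73, SE 0.049, adjusted p = 1.4e-07) and 1.13-fold after the Bmal1 siRNA (log2 change 0.18, adjusted p = 0.0248, lost in 6 of 23 settings). The interaction was -0.55 (SE 0.070, adjusted p = 0.000297), and under TGFb the Bmal1 siRNA minus scrambled difference was -0.40 (adjusted p = 0.000123). Under vehicle the siRNAs differed by 0.16 with an adjusted p of 0.111.

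Plin3 (chr17:56277476-56292873, minus strand) coats small, nascent droplets. It measured 45.33, 46.82 and 48.01 FPKM in scrambled vehicle and 25.52, 31.21 and 30.17 in scrambled TGFb. With the Bmal1 siRNA it measured 44.61, 43.60 and 44.96 FPKM under vehicle and 32.45, 45.96 and 35.57 under TGFb. The scrambled groups were separate, whereas replicate 2 of Bmal1 siRNA TGFb exceeded all 3 of its vehicle libraries. Plin3 fell by 38.0% in scrambled cells (log2 change -0.68, SE 0.102, adjusted p = 0.00013). After the Bmal1 siRNA its change was -0.23 (adjusted p = 0.129), and -0.38 (adjusted p = 0.00181) without that library. Under TGFb the Bmal1 siRNA level was higher by 0.37 (adjusted p = 0.02), or by 0.23 (adjusted p = 0.0485) without that library, and the call was lost without scrambled TGFb replicate 1. The interaction was 0.44 with an adjusted p of 0.0583.

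The enzymes of triglyceride assembly stayed within 0.5 of no change on the log2 scale in the tests of TGFb and of the siRNA. Lpin1 fell by 0.36 (adjusted p = 0.000647) in scrambled cells and by 0.46 (adjusted p = 0.000481) after the Bmal1 siRNA on the log2 scale. Gpam, which adds the first acyl chain to glycerol phosphate, fell by 0.25 (adjusted p = 0.022) and 0.28 (adjusted p = 0.0264), with overlapping groups in scrambled cells and the call there lost in 7 of 23 settings. Dgat2, which completes triglyceride, rose after the Bmal1 siRNA (0.33, adjusted p = 0.0113) and was higher with that siRNA under TGFb (0.33, adjusted p = 0.00966), and its interaction was not called. Dgat1, its partner in that step, and Agpat2, which adds the second acyl chain, were called in no comparison.

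Lipe and Mgll had the largest changes of the 36 with TGFb in scrambled cells, and the lipases moved in opposite directions. Pnpla2 (chr7:141455198-141460743, plus strand) takes the first fatty acid off triglyceride. It measured 28.54, 25.59 and 26.17 FPKM in scrambled vehicle and 15.76, 16.31 and 17.18 in scrambled TGFb. In Bmal1 siRNA vehicle it stood at 23.11, 22.59 and 23.05 FPKM, and in Bmal1 siRNA TGFb at 19.37, 22.47 and 21.42. The groups were in the order scrambled TGFb, Bmal1 siRNA TGFb, Bmal1 siRNA vehicle and scrambled vehicle from low to high, with no overlap. It fell by 38.7% in scrambled cells (log2 change -0.67, SE 0.060, adjusted p = 1.45e-06), and its change after the Bmal1 siRNA was -0.12 (adjusted p = 0.196). The difference between these changes was 0.55 (SE 0.085, adjusted p = 0.00116), and under TGFb the Bmal1 siRNA level was higher by 0.34 (adjusted p = 0.00154). Its activator Abhd5 was called in no comparison.

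Lipe (chr7:25379527-25398710, minus strand), hormone-sensitive lipase, takes the second fatty acid. It measured 11.75, 10.02 and 9.70 FPKM in scrambled vehicle and 3.51, 3.75 and 3.68 in scrambled TGFb. The Bmal1 siRNA libraries had 9.92, 8.90 and 9.08 FPKM under vehicle and 5.42, 8.55 and 5.70 under TGFb. The TGFb libraries were below the vehicle libraries of the same siRNA, and scrambled TGFb was lowest, but replicate 2 of Bmal1 siRNA TGFb came close to the vehicle range. Lipe fell by 65.2% in scrambled cells (log2 change -1.30, SE 0.122, adjusted p = 2.27e-06), from 10.5 ± 1.1 to 3.65 ± 0.123 FPKM (SD, n = 3), the largest change of the 36. After the Bmal1 siRNA it fell by 29.5% (log2 change -0.47, adjusted p = 0.0172, lost in 4 of 23 settings). The interaction was 0.83 (SE 0.173, adjusted p = 0.00756) and 0.65 (adjusted p = 0.00171) without replicate 2 of Bmal1 siRNA TGFb. Under TGFb the siRNAs differed by 0.68 (adjusted p = 0.00182), and by 0.50 (adjusted p = 0.00099) without that library. Lipe shares 918 exon bases with the antisense gene 4732471J01Rik, and the use of strand in counting was not stated.

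Mgll (chr6:88724412-88828360, plus strand), monoacylglycerol lipase, takes the last fatty acid and also degrades the endocannabinoid 2-arachidonoylglycerol. It measured 11.13, 11.45 and 12.46 FPKM in scrambled vehicle and 21.24, 25.88 and 24.68 in scrambled TGFb. Values in Bmal1 siRNA vehicle were 11.67, 13.51 and 14.38 FPKM and those in Bmal1 siRNA TGFb were 12.44, 15.32 and 14.36. The scrambled TGFb libraries were above all 9 others, and the Bmal1 siRNA treatments overlapped. Mgll rose 2.05-fold in scrambled cells (log2 change 0.97, SE 0.092, adjusted p = 2.53e-06), while after the Bmal1 siRNA its change was 0.08 (95% interval -0.12 to 0.28, adjusted p = 0.568). The difference between the changes was -0.89 (SE 0.131, adjusted p = 0.000857), and under TGFb the Bmal1 siRNA minus scrambled difference was -0.73 (adjusted p = 0.000145). An antisense gene, Gm26588, shares 167 exon bases with Mgll.

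**Figure D4:**
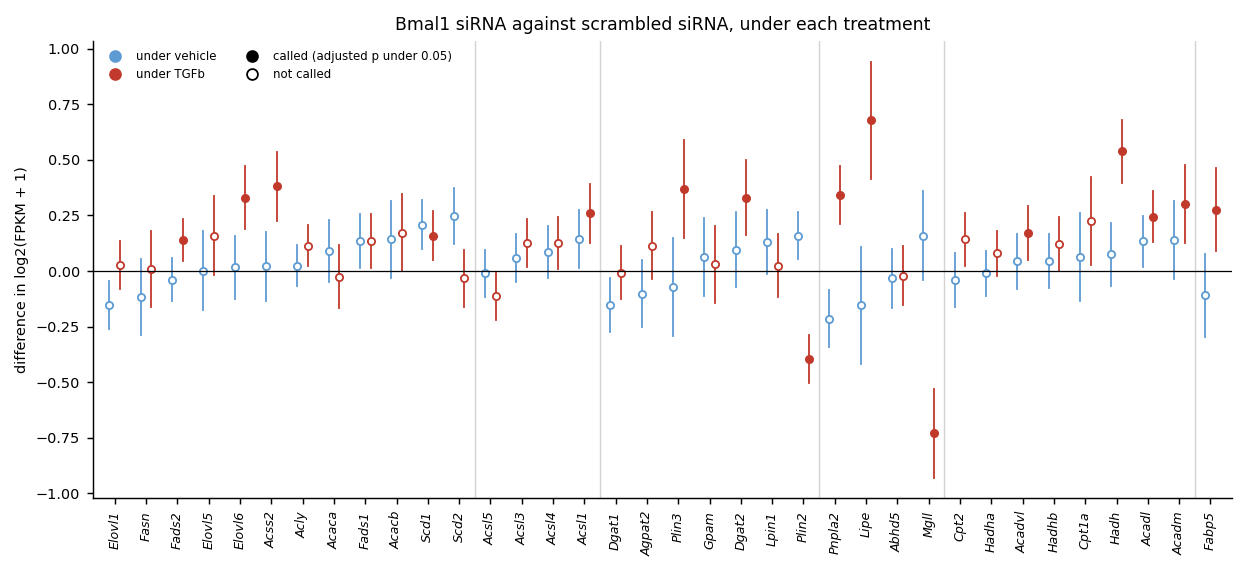
Difference between Bmal1 and scrambled siRNA in log2(FPKM + 1) for the 36 tested genes, under vehicle in blue and under TGFb in red, with 95% confidence intervals from limma. No point is filled (called) under vehicle, and under TGFb Lipe (0.68) and Mgll (-0.73) lie at the ends of the range.

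The start regions of these droplet and lipase genes were read from RefSeq because BMAL1 binds E-boxes, the sequence CACGTG. Each window below runs from 250 bases before to 50 bases after an annotated start, on GRCm38.p6, written along the transcript with any E-box in capitals. The Plin2 window is chr4:86670010-86670309 (minus strand), with an E-box that begins 4 bases before the start and spans it. For Mgll it is chr6:88724162-88724461 (plus strand), with an E-box that begins 44 bases before the start. For Lipe it is chr7:25395938-25396237 (minus strand), with an E-box that begins 155 bases before it. The Pnpla2 window, chr7:141454938-141455237 (plus strand), holds no E-box and is shown because Pnpla2 is the other lipase with a called interaction. Lipe and Mgll each have another annotated start whose window holds none. The windows of Plin3, Abhd5, Hadh, Elovl6 and Acss2 hold none either and are not shown.
Plin2: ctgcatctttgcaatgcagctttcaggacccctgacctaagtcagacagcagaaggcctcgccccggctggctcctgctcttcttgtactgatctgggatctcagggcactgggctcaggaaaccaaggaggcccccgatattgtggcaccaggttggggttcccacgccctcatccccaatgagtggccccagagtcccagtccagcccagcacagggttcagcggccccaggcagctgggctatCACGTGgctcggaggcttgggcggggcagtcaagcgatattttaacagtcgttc
Mgll: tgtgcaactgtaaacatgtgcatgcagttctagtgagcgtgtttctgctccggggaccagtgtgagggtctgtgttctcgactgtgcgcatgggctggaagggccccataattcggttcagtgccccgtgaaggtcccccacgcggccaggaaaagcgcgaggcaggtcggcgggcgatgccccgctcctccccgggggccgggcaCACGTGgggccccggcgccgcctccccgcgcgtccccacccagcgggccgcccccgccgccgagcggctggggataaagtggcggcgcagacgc
Lipe: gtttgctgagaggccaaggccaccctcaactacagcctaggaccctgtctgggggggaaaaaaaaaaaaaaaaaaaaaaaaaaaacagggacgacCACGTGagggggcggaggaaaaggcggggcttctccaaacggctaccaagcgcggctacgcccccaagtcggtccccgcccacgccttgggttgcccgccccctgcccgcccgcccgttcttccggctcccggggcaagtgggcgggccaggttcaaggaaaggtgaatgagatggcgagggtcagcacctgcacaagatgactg
Pnpla2: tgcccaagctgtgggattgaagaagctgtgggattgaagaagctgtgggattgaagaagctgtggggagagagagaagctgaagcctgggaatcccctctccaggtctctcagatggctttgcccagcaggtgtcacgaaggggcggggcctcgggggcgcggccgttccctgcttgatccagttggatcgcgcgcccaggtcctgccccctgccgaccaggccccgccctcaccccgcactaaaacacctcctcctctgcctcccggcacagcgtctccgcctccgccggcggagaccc

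E-boxes were counted in the same way in the start regions of the whole list and of all genes. Of the 41 listed genes 34 had a window in the reference table, and 4 of these (11.8%) held a CACGTG on either strand in at least 1 window: Elovl5, Lipe, Mgll and Plin2. Among all 27025 genes with a window the share was 8.09%. With so few genes the count is near that share and is no result about the list. The SMAD palindrome, searched as GTCTAGAC on both strands, was in none of the 34 and in 0.248% of all genes, and other spellings were not searched.

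Most mitochondrial oxidation genes were called lower in scrambled cells and none was called after the Bmal1 siRNA. In scrambled cells 5 of 8 were lower and none higher, with a median of -0.23, against 29.1% of all genes lower. After the Bmal1 siRNA none of the 8 was called, with a median of -0.09, against 19.0% of all genes called. Among so few genes that count is near the share of all genes. Cpt1a, Acadm and Hadh were called lower without replicate 2 of Bmal1 siRNA TGFb (adjusted p = 0.0302, 0.00464 and 0.00864). Only Hadh had a called interaction, so a difference between siRNAs in the change with TGFb was not shown for the other 7. Hadh (chr3:131233419-131272101, minus strand), the short-chain hydroxyacyl-CoA dehydrogenase, measured 40.16, 36.34 and 37.23 FPKM in scrambled vehicle and 21.59, 24.97 and 24.23 in scrambled TGFb. With the Bmal1 siRNA it measured 38.38, 40.57 and 40.91 FPKM under vehicle and 32.61, 37.71 and 33.81 under TGFb. Scrambled TGFb was far below the other 3 groups, and the Bmal1 siRNA treatments did not overlap. Hadh fell by 37.8% in scrambled cells (log2 change -0.66, SE 0.066, adjusted p = 3.87e-06), and its change after the Bmal1 siRNA was -0.20 (adjusted p = 0.0515). The interaction was 0.46 (SE 0.094, adjusted p = 0.0066), and under TGFb the Bmal1 siRNA level was higher by 0.54 (adjusted p = 0.000111).

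Hadha was the most abundant oxidation gene. It measured 49.78, 46.87 and 47.99 FPKM in scrambled vehicle and 41.89, 44.41 and 42.76 in scrambled TGFb. In Bmal1 siRNA vehicle it stood at 48.01, 47.77 and 47.77 FPKM, and in Bmal1 siRNA TGFb at 43.17, 48.10 and 45.30. In scrambled cells the treatments were separate and Hadha fell (log2 change -0.16, adjusted p = 0.0127), whereas after the Bmal1 siRNA they overlapped. Cpt1a, the gate of acyl entry into mitochondria, fell in scrambled cells (-0.30, adjusted p = 0.0168), as did its inner-membrane partner Cpt2 (-0.30, adjusted p = 0.000719) and the medium-chain dehydrogenase Acadm (-0.33, adjusted p = 0.00463). Under TGFb, 4 of the 8 were higher with the Bmal1 siRNA, against 16.0% of all genes. They were Hadh, Acadm (0.30, adjusted p = 0.0182), the long-chain dehydrogenase Acadl (0.24, adjusted p = 0.00599) and the very-long-chain dehydrogenase Acadvl (0.17, adjusted p = 0.045). The call of Acadvl was lost in 17 of 23 settings. Without replicate 2 of Bmal1 siRNA TGFb the differences were 0.19 for Acadm (adjusted p = 0.0521) and 0.13 for Acadvl (adjusted p = 0.154). Acadvl also shares 1151 exon bases with Dvl2, expressed at 28.96 to 37.18 FPKM. Hadhb, the other trifunctional protein subunit, was called in no comparison.

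Fabp5 was the only tested gene of uptake and binding. It measured 63.59, 47.98 and 48.84 FPKM in scrambled vehicle and 36.18, 35.49 and 34.33 in scrambled TGFb. The Bmal1 siRNA libraries had 50.05, 46.07 and 51.26 FPKM under vehicle and 41.14, 43.92 and 44.01 under TGFb. Within each siRNA the treatments did not overlap. It fell by 33.9% in scrambled cells (log2 change -0.57, SE 0.086, adjusted p = 0.000128), and its change after the Bmal1 siRNA was -0.19 (adjusted p = 0.152). Under TGFb it was higher with the Bmal1 siRNA (0.28, adjusted p = 0.035). That call was lost in 8 of 23 settings, among them that without replicate 2 of Bmal1 siRNA TGFb (adjusted p = 0.0835).

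Other genes of the same pathways were read from 7 further lists, whose counts stand against the 45.5% of all genes called with TGFb in scrambled cells (16.4% higher and 29.1% lower). Among 10 tested genes of SREBP and ChREBP control, the transcription factors that switch on lipogenesis and their regulators, 8 were lower with TGFb in scrambled cells and none was higher, with a median of -0.24. Mid1ip1, which promotes the assembly of active acetyl-CoA carboxylase, measured 81.35, 75.90 and 82.48 FPKM in scrambled vehicle and 51.12, 53.29 and 50.02 in scrambled TGFb. Values in Bmal1 siRNA vehicle were 69.27, 70.55 and 69.78 FPKM and those in Bmal1 siRNA TGFb were 61.54, 76.20 and 65.57. Mid1ip1 fell in scrambled cells, without overlap (log2 change -0.62, adjusted p = 5.84e-06), and its interaction was 0.58 (adjusted p = 0.00163). After the Bmal1 siRNA 3 of the 10 were lower, against 10.1% of all genes. They were Insig1 (-0.49), which retains SREBP in the endoplasmic reticulum, and the factors Srebf1 (-0.25) and Srebf2 (-0.20). Of 12 other synthesis and elongation enzymes, 4 were lower and 1 higher in scrambled cells (41.7% called), a share near that of all genes. Tecr, the reductase that ends each elongation cycle, went from 727 to 537 FPKM (log2 change -0.44, adjusted p = 1.86e-05).

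Among 16 other triglyceride and droplet genes, 3 were higher and 2 lower with TGFb in scrambled cells. G0s2, an inhibitor of Pnpla2, had 0, 0.10 and 0.24 FPKM in scrambled vehicle and 1.72, 1.61 and 1.88 in scrambled TGFb. With the Bmal1 siRNA it measured 0.20, 0.39 and 0.53 FPKM under vehicle and 0.43, 0.90 and 0.29 under TGFb. The scrambled TGFb libraries were above the other 9, all of which were under 1 FPKM, and the Bmal1 siRNA treatments overlapped. G0s2 rose in scrambled cells (log2 change 1.30, adjusted p = 5.82e-06), and its interaction was -1.15 (adjusted p = 0.00215). Hilpda, another inhibitor of Pnpla2, also rose in scrambled cells (0.40, adjusted p = 0.00892) with an interaction of -0.52 (adjusted p = 0.039), a call lost in 10 of 22 other settings with adjusted p up to 0.104. Lpl, which frees fatty acids from circulating lipoproteins, was higher with the Bmal1 siRNA under TGFb (0.62, adjusted p = 0.000151), from 2.55 to 4.43 FPKM.

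Of 23 other mitochondrial oxidation genes, 13 were lower and 1 higher with TGFb in scrambled cells (60.9% called, median -0.22). After the Bmal1 siRNA 2 were lower and 1 higher (13.0% called, median -0.06). Over all genes 19.0% were called there, so that smaller count is no result about the list. Acaa2, the last enzyme of the mitochondrial spiral, had 15.01, 15.39 and 16.15 FPKM in scrambled vehicle and 8.21, 9.38 and 8.28 in scrambled TGFb. In Bmal1 siRNA vehicle it stood at 15.12, 15.96 and 15.73 FPKM, and in Bmal1 siRNA TGFb at 10.47, 14.80 and 11.31. It fell under both siRNAs without overlap, by 0.78 (adjusted p = 2.19e-05) and 0.35 (adjusted p = 0.0231) on the log2 scale, and the interaction was 0.44 (adjusted p = 0.0478). Those calls were lost in 5 of 23 other settings after the Bmal1 siRNA (adjusted p up to 0.104) and in 14 of 22 for the interaction (adjusted p up to 0.103). Under TGFb 8 of the 23 were higher with the Bmal1 siRNA (34.8%, against 16.0% of all genes) and none was lower. Of 13 peroxisomal genes 6 were lower and 1 higher in scrambled cells (53.8% called), near the share of all genes.

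Among 13 tested partners and targets of the PPAR receptors, 3 were higher and 3 lower in scrambled cells (46.2% called), a share like the 45.5% of all genes and so no result about the list. Ucp2, a mitochondrial carrier, rose from 0.81 to 3.45 FPKM (log2 change 1.29, adjusted p = 5.4e-06), and Angptl4, a lipoprotein lipase inhibitor and classical PPAR target, fell by 0.56 on the log2 scale (adjusted p = 0.000936). Both had a called interaction, of -1.17 (adjusted p = 0.0017) and 0.55 (adjusted p = 0.0301), the Angptl4 call being lost in 9 of 21 other settings with adjusted p up to 0.104, among them that without replicate 2 of Bmal1 siRNA TGFb (0.47, adjusted p = 0.0542). Cebpb was the sole gene of the 7 lists called between siRNAs under vehicle, going from 283 to 218 FPKM (-0.38, adjusted p = 0.0253), a call lost in 5 of 23 other settings with adjusted p up to 0.161. Of 8 other uptake and binding genes 3 were lower and 1 higher in scrambled cells, again near the share of all genes. Dbi, the acyl-CoA-binding protein, went from 134 to 79.5 FPKM (-0.75, adjusted p = 6.09e-06). Vldlr, the receptor for very-low-density lipoprotein, rose in scrambled cells (0.71, adjusted p = 0.00549). It averaged 8.71 FPKM in scrambled vehicle, 14.8 in scrambled TGFb, 14.8 in Bmal1 siRNA vehicle and 13.2 in Bmal1 siRNA TGFb. Scrambled vehicle thus stood below every other group, also the untreated Bmal1 siRNA group.

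**Figure D5:**
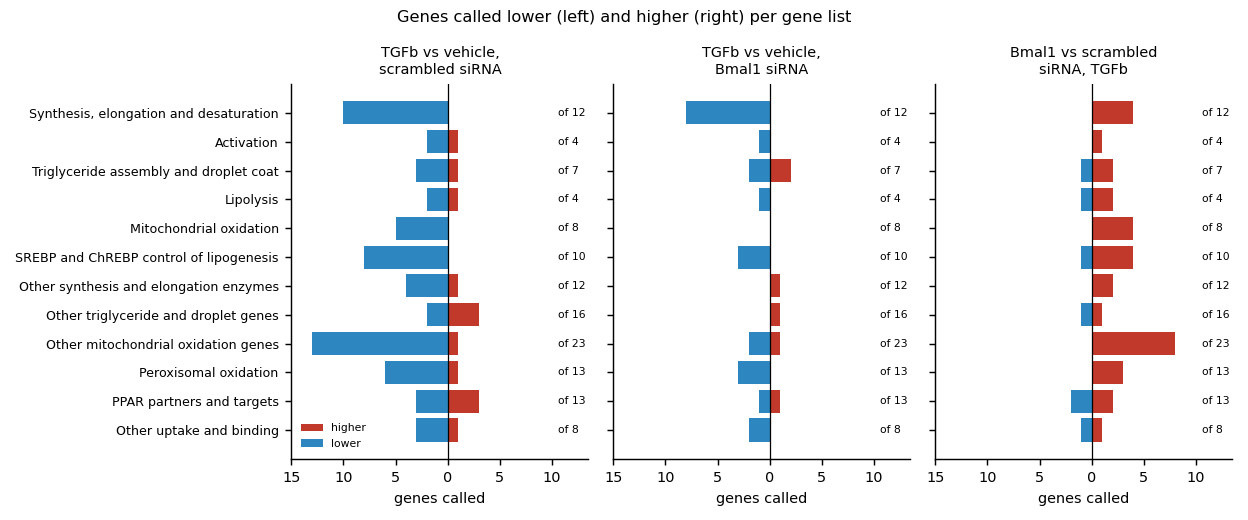
Genes called lower (left) and higher (right) in each of 5 role groups and 7 pathway lists, with the number tested at the right of each panel, for TGFb in scrambled cells, TGFb after the Bmal1 siRNA, and the siRNAs compared under TGFb. Synthesis genes were lower under both siRNAs (10 and 8 of 12), and of 8 mitochondrial oxidation genes 5 were called lower in scrambled cells and 0 after the Bmal1 siRNA. Of all genes tested, 29.1% were lower in scrambled cells and 10.1% after the Bmal1 siRNA.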

How the data were processed

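Total RNA of 12 libraries was sequenced at BGI, per the labels' protocols, after extraction with either of 2 kits chosen by sample abundance. The kit of each library was not stated. The authors deposited FPKM values per gene in a single table, per the file headers. The submitters' processing notes list the build mm10 and the tools RSEM, DESeq2, Bowtie2 2.2.5 and HISAT2 2.0.4, with no roles. For annotation and strand use, nothing is given in the sources used here. FPKM is relative to each library's total, so a rise in a few abundant genes lowers all others. Low values rest on few fragments.

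Of 16290 lines, 555 had no gene name (1.30% to 1.46% of a library's FPKM) and were left out, as were 15 repeated lines with the lower mean, leaving 15720 genes. The 11208 genes that averaged 0.5 FPKM or more entered limma 3.58.1 (R 4.3.3) as log2(FPKM + 1). This scale understates changes of low genes. A group-means model over all 12 libraries (8 residual and 4.99 prior degrees of freedom, mean trend) gave 5 two-sided contrasts, with Benjamini-Hochberg adjustment over all genes tested. Every adjusted p is from this fit unless another setting is named. Exact permutation of 3 against 3 libraries cannot go below p = 0.1, so it was not used for calls. The design had allowed for RPKM or FPKM, which take the same test. The fit was tested on simulated data.

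Groups came from the sample titles. The 41 genes, the role groups, the 7 pathway lists and the marker lists were chosen with earlier results of these data known. Among the 41 genes, per-library values were given when called with an absolute log2 change of at least 0.5, or when highest in their role group. The regulators and Arntl always got them, and other genes with per-library values were chosen after their values were seen. Settings varied were the pseudocount (0.1 or 5), the filter (none, or a mean of 2 FPKM), 3 other scalings, a replicate block, a fit of just the compared groups, array weights, each library left out and both second TGFb libraries left out. Coordinates are those of GENCODE M21 (mm10), in which 13 of the 40 genes share exon bases with another gene. Depth was estimated from 25 single-transcript genes whose low values fell on steps, with an assumed fragment length of 150 bases (quartiles 26200000 and 30200000).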

Additional observations from a re-analysis of the deposited data

Results flagged for a closer look

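For 8 of the 36 tested genes (22.2%, against 14.4% of all genes) the change with TGFb differed between the siRNAs by the interaction term in limma. In log2(FPKM + 1), Bmal1 siRNA minus scrambled siRNA, the differences were 0.83 for Lipe (adjusted p = 0.00756), 0.55 for Pnpla2 (adjusted p = 0.00116), 0.46 for Hadh (adjusted p = 0.0066), 0.36 for Acss2 (adjusted p = 0.0313) and 0.31 for Elovl6 (adjusted p = 0.0402). They were -0.89 for Mgll (adjusted p = 0.000857), -0.55 for Plin2 (adjusted p = 0.000297) and -0.28 for Scd2 (adjusted p = 0.0395). For 7 of the 8 the change with TGFb was larger in scrambled cells, and for Scd2 it was larger after the Bmal1 siRNA. Without Bmal1 siRNA TGFb replicate 2, which stood apart from its group, the calls of Acss2 (0.33, adjusted p = 0.0555) and Scd2 (-0.27, adjusted p = 0.0569) were lost. The Elovl6 call was lost in other settings, and with median-of-ratios scaling 3 calls were positive and 3 negative. Dixon's test for an outlying value was not applied to groups of 3 libraries.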

How the results depend on the processing

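No call of the 36 genes changed sign in any of 23 other settings (22 for the interaction, which has no fit with only the groups compared). Of the calls, 19 of 26 held in every setting for TGFb in scrambled cells, 4 of 14 after the Bmal1 siRNA, 9 of 16 between siRNAs under TGFb and 5 of 8 for the interaction. For TGFb after the Bmal1 siRNA the count of 14 became 9 with only the groups compared and 26 with array weights, and leave-one-out counts ran from 5 to 19. Between siRNAs under vehicle the count of 0 became 6 with array weights and 2 without both second TGFb libraries, and leave-one-out counts ran from 0 to 3. Between siRNAs under TGFb it became 10 without both second TGFb libraries, and leave-one-out counts ran from 10 to 16. For the interaction it became 5 with no filter, and leave-one-out counts ran from 5 to 9. Arntl under vehicle was -0.21 with a pseudocount of 5 (adjusted p = 0.0516), -0.37 with no filter (adjusted p = 0.0812) and -0.34 with equal totals (adjusted p = 0.0682), and leave-one-out values ran from -0.40 to -0.34. The cause of these changes was not tested. The estimation of the array weights stopped before it converged.

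With the replicate number as a replicate block the counts were 26, 16, 2, 16 and 10 for TGFb in scrambled cells, TGFb after the Bmal1 siRNA, the siRNAs under vehicle, the siRNAs under TGFb and the interaction. Deviations of same-numbered libraries correlated between -0.161 and 0.475 across genes, not all above 0.1, so the numbers were not taken to pair the libraries. Over all genes the share of calls that were higher went from 36.1% to 49.8% with median-of-ratios scaling for TGFb in scrambled cells, from 69.1% to 44.9% between siRNAs under TGFb and from 61.6% to 42.1% for the interaction. Genes under about 1 FPKM rest on few fragments, and FPKM gives no counting error.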

Other observations

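Ratios between droplet genes within a library do not depend on how libraries are scaled. They were chosen after the values were seen. Mgll per Lipe was 1.13 ± 0.169 (SD, n = 3) in scrambled vehicle, 6.55 ± 0.445 in scrambled TGFb, 1.43 ± 0.219 in Bmal1 siRNA vehicle and 2.2 ± 0.373 in Bmal1 siRNA TGFb. Plin2 per Plin3 was 0.697 ± 0.00992, 1.90 ± 0.141, 0.823 ± 0.0360 and 1.12 ± 0.229 in the same order. Plin2 per Pnpla2 was 1.22 ± 0.0874, 3.34 ± 0.198, 1.59 ± 0.0715 and 1.97 ± 0.210. For all 3 ratios the scrambled TGFb libraries lay above every other library. Each ratio sets a gene called higher over one called lower in scrambled cells, so its direction there was fixed by that choice, and the ratios were not tested.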
